A study of Mus musculus with 12 samples.

Results

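The interaction of a human islet amyloid polypeptide (hIAPP) transgene with loss of BACE2 was measured in mouse pancreatic islets as the difference between 2 differences: hIAPP/BACE2-KO minus hIAPP, less BACE2-KO minus WT. Each of these differences is called an arm here, with the transgene or without it. A value of 0 means that BACE2 loss went with the same log2 difference whether or not the transgene was present, and a negative value means that hIAPP/BACE2-KO islets lay below the level that the separate differences add up to. All 12 of the 12 arrays entered it. Of 17097 genes with a probe set of a single symbol, 12825 were tested and 4272 were left out because their mean log2 level was under 3.43, the 25th percentile.

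The 4 groups held 3 Affymetrix arrays each of islet RNA from mice aged 12 weeks on standard chow. The hIAPP/BACE2-KO mice carried the transgene and lacked BACE2, the hIAPP mice carried the transgene with BACE2 present, the BACE2-KO mice lacked BACE2 with no transgene, and the WT mice had neither change. All groups, WT included, have the strain name B6;129P2-Bace2tm1Bdes/J. The sources used here do not give the promoter or insertion site of the transgene. They also do not state the sex of the mice or whether an array pools several animals. Each p-value covers only the spread among arrays, which may be technical. Y-linked transcripts were present on every array, so each held RNA from males. Eif2s3y lay between 8.08 and 8.68, Kdm5d between 6.71 and 7.34 and Uty between 6.82 and 7.43. Xist lay between 3.23 and 3.91, near the filter level.

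Islet amyloid polypeptide, or amylin, is a peptide that beta cells store and release with insulin. The human peptide aggregates into amyloid, whereas the mouse peptide does not, which is why a human transgene is used to model islet amyloid in mice. BACE2 is a membrane aspartyl protease of beta cells that sheds surface proteins such as TMEM27. A test of interaction asks, for each transcript, whether the difference that goes with BACE2 loss depends on the transgene, and equally whether the difference that goes with the transgene depends on BACE2.

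Of 12825 genes, 1 passed the interaction test at a Benjamini-Hochberg adjusted p under 0.05 in limma (0.0078%), and it was Sema5a, a transmembrane semaphorin known from axon guidance. Its transcript was high in all hIAPP arrays and low in nearly every other array. An unadjusted p under 0.05 was reached by 308 genes (2.4%), 180 above 0 (1.4%) and 128 below 0 (0.998%). If no gene differs, about 5% of genes reach it, so the 2.4% lay below that share. The median interaction over all genes was 0.02, and 7048 genes (55%) lay above 0. The middle of the distribution was narrow, with the 5th percentile at -0.31 and the 95th at 0.4. The interaction is estimated less precisely than a single difference: its median standard error (SE) was 0.2, against 0.14 for BACE2 loss in either arm. At that SE, an estimate of 1.55 log2 units would have been needed to pass as the gene with the smallest p, the strictest step of the adjustment. Estimates well below that size would not have passed for a typical gene with 3 arrays a group.

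Sema5a had log2 levels of 3.7, 3.55 and 3.55 in hIAPP/BACE2-KO arrays, 8.61, 8.49 and 7.47 in hIAPP arrays, 3.62, 3.69 and 4.79 in BACE2-KO arrays and 3.5, 3.62 and 3.43 in WT arrays. The hIAPP arrays did not overlap any other group, and BACE2-KO replicate 3 stood above the remaining arrays without the transgene. The group means were 3.6 ± 0.09, 8.19 ± 0.63, 4.03 ± 0.66 and 3.52 ± 0.1 (SD, n = 3 each) in the same order. Adding both separate differences to the WT level gives 8.7 for hIAPP/BACE2-KO islets, against the measured 3.6. The interaction was -5.11 (SE 0.45, 95% interval -6.08 to -4.13, limma adjusted p = 0.000722). In terms of each change, the difference that went with BACE2 loss was -4.59 with the transgene and 0.52 without it, and the difference that went with the transgene was -0.43 without BACE2 and 4.67 with BACE2. The low groups lay close to the filter level. Background was not measured, and signal there is not taken as resolved from it. The size of the interaction is therefore not resolved beyond that level.

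Over 25 alternative settings in which the gene was tested, the interaction ran between -5.47 and -2.71 and the adjusted p between 0.000137 and 0.0277, with the smallest size when its 4 probe sets were averaged. Leaving out 1 array gave values between -5.47, without hIAPP replicate 3, and -4.73, without BACE2-KO replicate 3. On the linear scale, an alternative chosen after seeing the data, Sema5a had the smallest p of all genes but an adjusted p of 0.999, and a filter at the 50th percentile of mean level left it untested.

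The other probe sets named Sema5a were examined in the same model. Probe set 1434776_PM_at had levels of 3.28, 3.25 and 2.85 in hIAPP/BACE2-KO arrays, 8.29, 8.27 and 7.12 in hIAPP arrays, 3.34, 2.92 and 3.73 in BACE2-KO arrays and 3.26, 3.47 and 3.06 in WT arrays, an interaction of -4.83 (SE 0.4, limma adjusted p = 0.000166 among all 28898 probe sets with 1 symbol). Probe set 1422167_PM_at, with 2.72, 2.8 and 2.87 in hIAPP/BACE2-KO arrays, 4.27, 3.79 and 3.71 in hIAPP arrays, 2.74, 3.11 and 2.95 in BACE2-KO arrays and 3.06, 2.88 and 3 in WT arrays, had an interaction of -1.08 (SE 0.2) that missed the threshold at an adjusted p of 0.448. Probe set 1459109_PM_at stood between 2.75 and 3.55 in all 12 arrays, with an interaction of 0.18 (SE 0.27). So 3 of the 4 probe sets were highest in the hIAPP arrays, with no overlap, and the fourth stayed near the filter level in every group.

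Snhg18, a small nucleolar RNA host gene that neighbours Sema5a on chromosome 15, had the second smallest p. It had log2 levels of 5.97, 6.11 and 6.25 in hIAPP/BACE2-KO arrays, 8.88, 8.51 and 7.72 in hIAPP arrays, 6.22, 6.09 and 6.52 in BACE2-KO arrays and 6.12, 6.33 and 6.23 in WT arrays. As for Sema5a, the hIAPP arrays stood apart, replicate 3 was the lowest of them, and the other 3 groups overlapped. Its levels lay well above the filter in every array, so the size is better resolved than for Sema5a. The interaction was -2.31 (SE 0.33, 95% interval -3.02 to -1.6), and its limma adjusted p of 0.0705 missed the threshold. BACE2 loss went with -2.26 in the presence of the transgene and with 0.05 in its absence. The call depended on settings. The interaction of Snhg18 passed in limma with a robust variance model (adjusted p = 0.0427) and without hIAPP replicate 3 (-2.63, adjusted p = 0.000625). It also passed when each probe set was tested on its own (adjusted p = 0.0359). With Y-linked transcripts as a covariate its adjusted p was 0.9997. Over its 26 settings, that covariate included, the estimate stayed between -2.63 and -1.99.

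**Figure D1:**
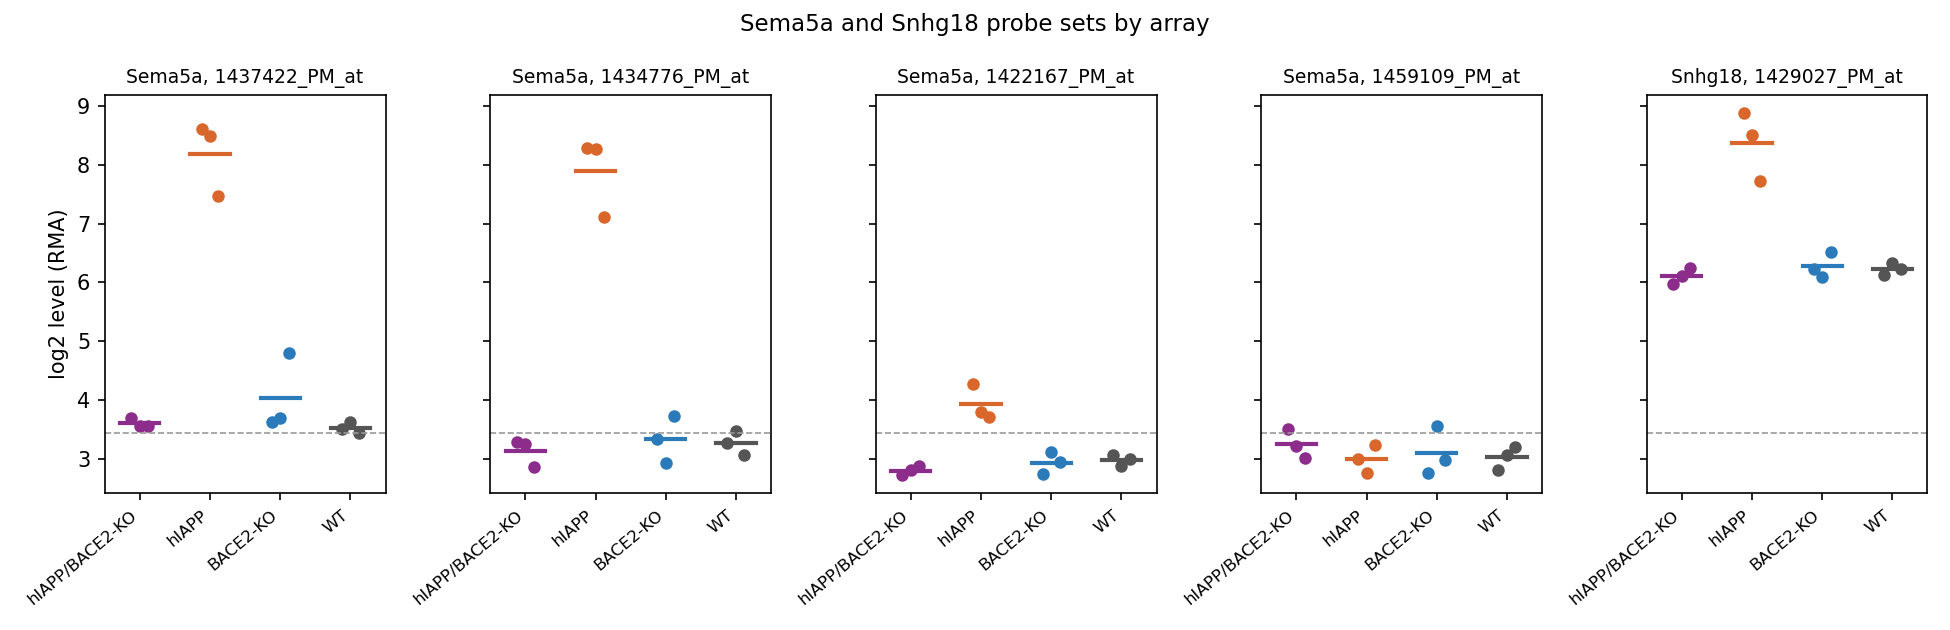
Log2 RMA level of 4 Sema5a probe sets and of Snhg18 on 12 arrays: points are arrays, bars are group means, and the dashed line is the filter level of 3.43. In 4 of the 5 panels the 3 hIAPP arrays lie above every other array, by a small margin for 1422167_PM_at, and in the panel of 1459109_PM_at the groups overlap.

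The window around the Sema5a start is shown because Sema5a and Snhg18 are read in opposite directions from starts 151 bases apart, so a single stretch of DNA lies upstream of both. RefSeq places the Sema5a window, 250 bases before to 50 after the start, at chr15:32244563-32244862 on the plus strand of GRCm38.p6, and the Snhg18 window at chr15:32244613-32244912 on the minus strand. The windows share 250 bases. Capitals mark GGGCGG, the GC box, and its reverse complement; overlapping matches run together.
Sema5a: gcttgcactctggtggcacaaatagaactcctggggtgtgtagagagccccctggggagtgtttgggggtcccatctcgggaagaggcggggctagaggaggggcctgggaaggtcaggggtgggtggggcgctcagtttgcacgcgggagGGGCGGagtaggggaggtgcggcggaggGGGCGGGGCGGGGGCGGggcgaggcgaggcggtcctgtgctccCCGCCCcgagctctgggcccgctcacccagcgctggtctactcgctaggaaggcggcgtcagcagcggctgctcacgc
GGGCGG was found at 5 places in each window on either strand, all of them within the shared bases, and 35.7% of 32851 promoter windows of the same length held at least 1. Searched in the same way, the CAAT box CCAAT, present in 37.4% of all windows, was in neither. The TATA box TATAAA (13.6% of windows) and the cyclic AMP response element TGACGTCA (1.8%) were in neither as well. The Sema5a window had 23 CG dinucleotides and the Snhg18 window 31, against a median of 7 over all windows, and 21.5% of all windows held at least as many as the Sema5a window. These matches describe the letters and say nothing of which factor binds.

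The nearest tested genes on chromosome 15 did not share the pattern at a comparable size. Cct5, a subunit of the cytosolic chaperonin, had an interaction of -0.05 (95% interval -0.28 to 0.18), and Atpsckmt, a lysine methyltransferase, had 0 (-0.4 to 0.41). On the far side, Sdc2, a cell-surface heparan sulfate proteoglycan, had 0.13 (-0.36 to 0.62), Cpq, a carboxypeptidase, 0.05 (-0.21 to 0.31) and the long non-coding RNA gene 4930592A05Rik 0.16 (-0.21 to 0.54). The intervals of these 5 genes do not reach the values of Sema5a or Snhg18. Whether the place where the transgene sits in the genome bears on Sema5a and Snhg18 was not tested.

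Other semaphorins and their plexin receptors gave no further call. Of 31 list members, 28 were tested, 17 above and 11 below 0, with a median of 0.07. An unadjusted p under 0.05 was reached by 4 of the 28, Sema5a included, against 2.4% of all genes. Sema6c, a transmembrane semaphorin, had levels of 3.92, 4.25 and 3.89 in hIAPP/BACE2-KO arrays, 4.32, 4.43 and 4.41 in hIAPP arrays, 4.31, 4.33 and 4.26 in BACE2-KO arrays and 4.17, 4.06 and 4.17 in WT arrays, an interaction of -0.53 (SE 0.17). The values of Sema4a and Sema7a were 0.44 (SE 0.18) and 0.51 (SE 0.24), opposite in sign to Sema5a. The adjusted p of each of these 3 was 0.9995 in limma.

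The genotype itself could not be read from the probe sets described here. Bace2 had levels of 10.65, 10.95 and 10.94 in hIAPP/BACE2-KO arrays, 10.89, 11.03 and 11.09 in hIAPP arrays, 10.85, 11 and 10.97 in BACE2-KO arrays and 11.18, 10.91 and 11.18 in WT arrays. The groups overlapped, and the interaction was -0.01 (95% interval -0.32 to 0.3). These are the levels of its probe set with the highest mean, and any other Bace2 probe set is not described here. The position of the probes relative to the deletion is unknown, so these levels do not check the genotype. Iapp had no probe set of a single symbol, so the transgene was not checked either. The hormone transcripts that define islets were near the top of the scale in all 12 arrays, with Ins2 between 13.93 and 14.03, Gcg between 13.05 and 13.22 and Sst between 12.14 and 12.87, and their interactions were 0.01, -0.05 and 0.06. Transcripts of acinar cells were also present, with a list mean between 8.46 and 10.98, highest in WT replicate 1 and lowest in WT replicate 3.

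BACE2 loss passed the test for 13 genes in the presence of the transgene (0.101%) and for 16 in its absence (0.125%), while 1073 (8.37%) and 806 (6.28%) had an unadjusted p under 0.05. These calls overlapped in 7 genes, so 22 were called in at least 1 arm, 6 with the transgene alone and 9 without it alone. A gene past the threshold in 1 arm is not thereby shown to differ between arms. Of the 15 genes called in 1 arm, 1 passed the interaction test (Sema5a), and 13 had the same sign in both arms. An unadjusted interaction p under 0.05 was reached by 8 of the 15, against 2.4% of all genes. The choice by a call in 1 arm favours small interaction p-values, so this count is a description. The counts of 13 and of 16 calls each moved by over 1.5 times when certain single arrays were left out. The 13 calls became 4 to 8 when any hIAPP/BACE2-KO array, hIAPP replicate 2 or hIAPP replicate 3 was dropped. The 16 calls became 5 to 10 when any BACE2-KO array, WT replicate 1, WT replicate 2, hIAPP/BACE2-KO replicate 3 or hIAPP replicate 2 was dropped.

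**Figure D2:**
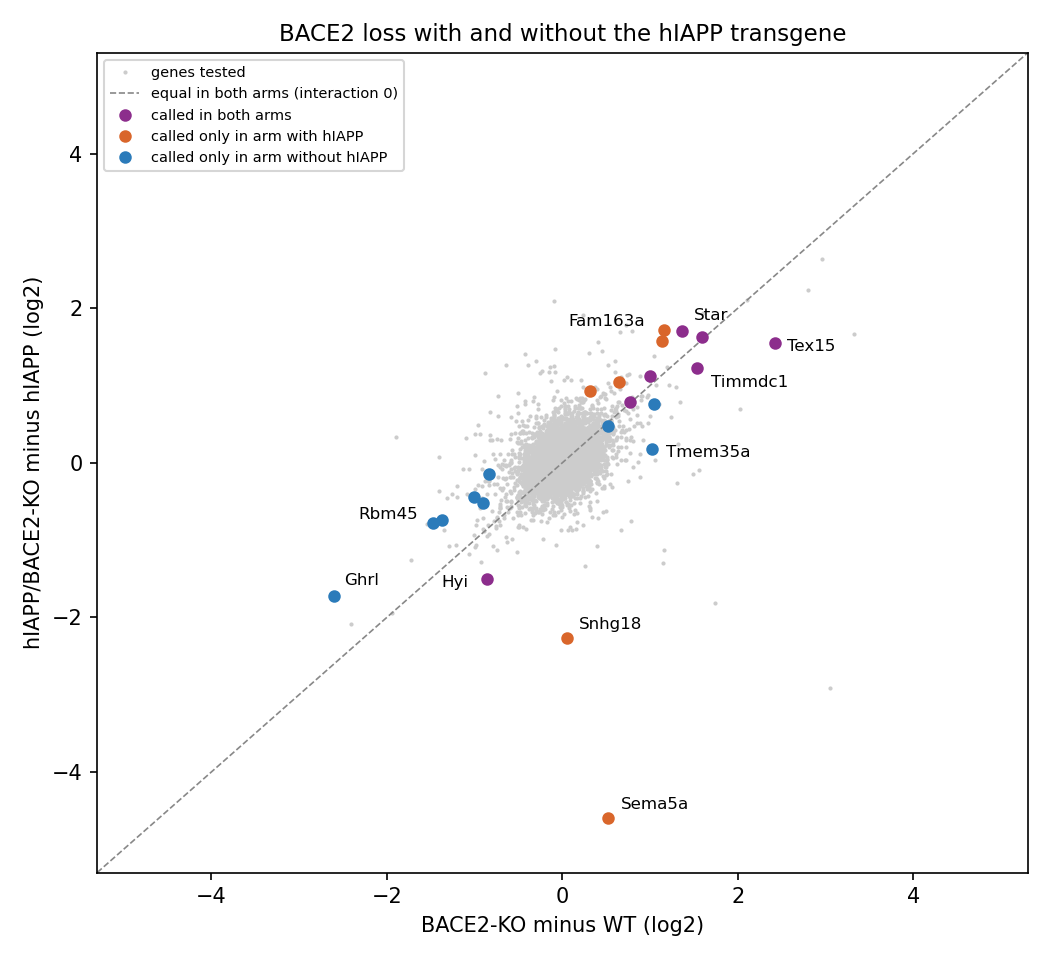
Log2 difference that went with BACE2 loss, with the hIAPP transgene (vertical axis) and without it (horizontal axis): grey points are the 12825 genes tested, coloured points the 22 called in either arm, and the dashed line marks an interaction of 0. Sema5a and Snhg18 lie far below the line near 0 on the horizontal axis, whereas most other coloured points lie near the line on the same side of 0 in both arms.

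The 7 genes called in both arms had interactions between -0.87 and 0.35. Pdgfrl, Ppp1r3b, Star and Tex15 lie on chromosome 8, as does Frg1, which was called without the transgene alone. Timmdc1 lies on chromosome 16 with Bace2, Fam81a on chromosome 9 and Hyi on chromosome 4. Whether linked genetic background bears on these differences was not tested. Timmdc1, an assembly factor of respiratory complex I, had levels of 7.59, 7.76 and 7.93 in hIAPP/BACE2-KO arrays, 6.31, 6.68 and 6.62 in hIAPP arrays, 8.26, 8.1 and 8.3 in BACE2-KO arrays and 6.77, 6.63 and 6.66 in WT arrays. Each group without BACE2 stood clear of each group with it. BACE2 loss went with 1.22 with the transgene and 1.53 without, and the interaction of -0.31 (95% interval -0.69 to 0.07) did not pass. Pdgfrl, Ppp1r3b and Fam81a had interactions of 0, 0.04 and 0.13, with 95% intervals of -0.32 to 0.33, -0.68 to 0.77 and -0.35 to 0.61. Star, which carries cholesterol into mitochondria, had 0.35 (-0.35 to 1.05).

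Hyi and Tex15 were called in both arms and also had unadjusted interaction p-values under 0.05. Hyi, a hydroxypyruvate isomerase, had levels of 4.85, 4.67 and 4.85 in hIAPP/BACE2-KO arrays, 6.11, 6.38 and 6.39 in hIAPP arrays, 5.03, 4.69 and 4.97 in BACE2-KO arrays and 5.85, 5.71 and 5.7 in WT arrays. The groups without BACE2 were both low and overlapped, and the hIAPP arrays lay above the WT arrays. BACE2 loss went with -1.5 with the transgene and -0.86 without, an interaction of -0.65 (SE 0.2, limma adjusted p = 0.9995). Tex15, a gene of germ cells, had 5.28, 4.87 and 5.16 in hIAPP/BACE2-KO arrays, 3.26, 3.81 and 3.59 in hIAPP arrays, 5.73, 5.23 and 6.36 in BACE2-KO arrays and 3.47, 3.49 and 3.09 in WT arrays. Its difference was 1.55 with the transgene and 2.42 without, an interaction of -0.87 (SE 0.35). The hIAPP and WT arrays of Tex15 lay close to the filter, and the size of either difference is not resolved there.

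Of the 6 genes called with the transgene alone, Sema5a and Snhg18 are described above. Cpt1c, the brain form of carnitine palmitoyltransferase, had levels of 7.07, 7.22 and 7.29 in hIAPP/BACE2-KO arrays, 5.94, 6.27 and 6.59 in hIAPP arrays, 6.89, 6.99 and 6.87 in BACE2-KO arrays and 6.72, 6.5 and 6.56 in WT arrays. The hIAPP arrays were spread below and around the WT arrays. Its difference was 0.93 with the transgene and 0.32 without, an interaction of 0.6 (SE 0.21). The serine/threonine kinase gene Stk35, the cationic amino acid transporter gene Slc7a3 and Fam163a had interactions of 0.41, 0.44 and 0.56, each with a 95% interval that included 0. The value of Slc7a3 was 0.18 without BACE2-KO replicate 1, and that of Fam163a was 0.23 without WT replicate 3. For these 4 genes the difference had the same sign in both arms.

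The 9 genes called without the transgene alone included 5 with unadjusted interaction p-values under 0.05, a count that the choice by 1 arm favours. Tmem35a, a chaperone of nicotinic acetylcholine receptors, had levels of 3.8, 3.35 and 3.65 in hIAPP/BACE2-KO arrays, 3.32, 3.45 and 3.5 in hIAPP arrays, 4.44, 4.21 and 4.82 in BACE2-KO arrays and 3.63, 3.4 and 3.38 in WT arrays. The BACE2-KO arrays stood above all others, which overlapped near the filter level. BACE2 loss went with 0.18 with the transgene and 1.02 without, an interaction of -0.84 (SE 0.23, limma adjusted p = 0.9995). Rbm45, an RNA-binding protein gene, had 6.21, 6.25 and 6.21 in hIAPP/BACE2-KO arrays, 7.39, 6.91 and 6.72 in hIAPP arrays, 6.03, 6.12 and 6.23 in BACE2-KO arrays and 7.65, 7.63 and 7.51 in WT arrays. The groups without BACE2 were low together, while hIAPP arrays lay between them and the WT arrays. The difference was -0.78 with the transgene and -1.47 without, an interaction of 0.69 (SE 0.21).

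Pnoc, which encodes the precursor of the neuropeptide nociceptin, Mrap2, an accessory protein of melanocortin receptors, and the lipoxygenase gene Alox8 were likewise highest in the WT arrays. Their differences with the transgene were -0.74, -0.44 and -0.14, and those without it were -1.37, -1.01 and -0.84. The interactions were 0.63, 0.57 and 0.7, and none passed adjustment. In hIAPP/BACE2-KO and BACE2-KO arrays the means were 3.96 and 3.82 for Pnoc, 3.44 and 3.31 for Mrap2 and 3.47 and 3.24 for Alox8. Adding both separate differences to the WT level gives 3.32, 2.87 and 2.77 for hIAPP/BACE2-KO islets, all under the filter level. The size of these 3 interactions is therefore not resolved. Ghrl, the ghrelin gene of epsilon cells, had 3.61, 2.93 and 3.39 in hIAPP/BACE2-KO arrays, 5.23, 4.43 and 5.43 in hIAPP arrays, 3.14, 3.09 and 3.14 in BACE2-KO arrays and 6.74, 5.31 and 5.12 in WT arrays. Both groups without BACE2 lay near the filter level and both groups with it lay above them. Its difference was -1.72 with the transgene, which missed the threshold, and -2.6 without, which passed, yet the interaction was 0.88 with a 95% interval of -0.25 to 2.01. The interaction of Ghrl was 0.37 without WT replicate 1 and -0.0035 with Y-linked transcripts as a covariate. Mcm6, a subunit of the replicative helicase, had 0.38 (-0.07 to 0.84), and Frg1 and Zcchc12 had -0.06 and -0.29 with intervals that included 0. Over the 22 genes, 11 had a smaller difference with the transgene and 11 a larger one.

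**Figure D3:**
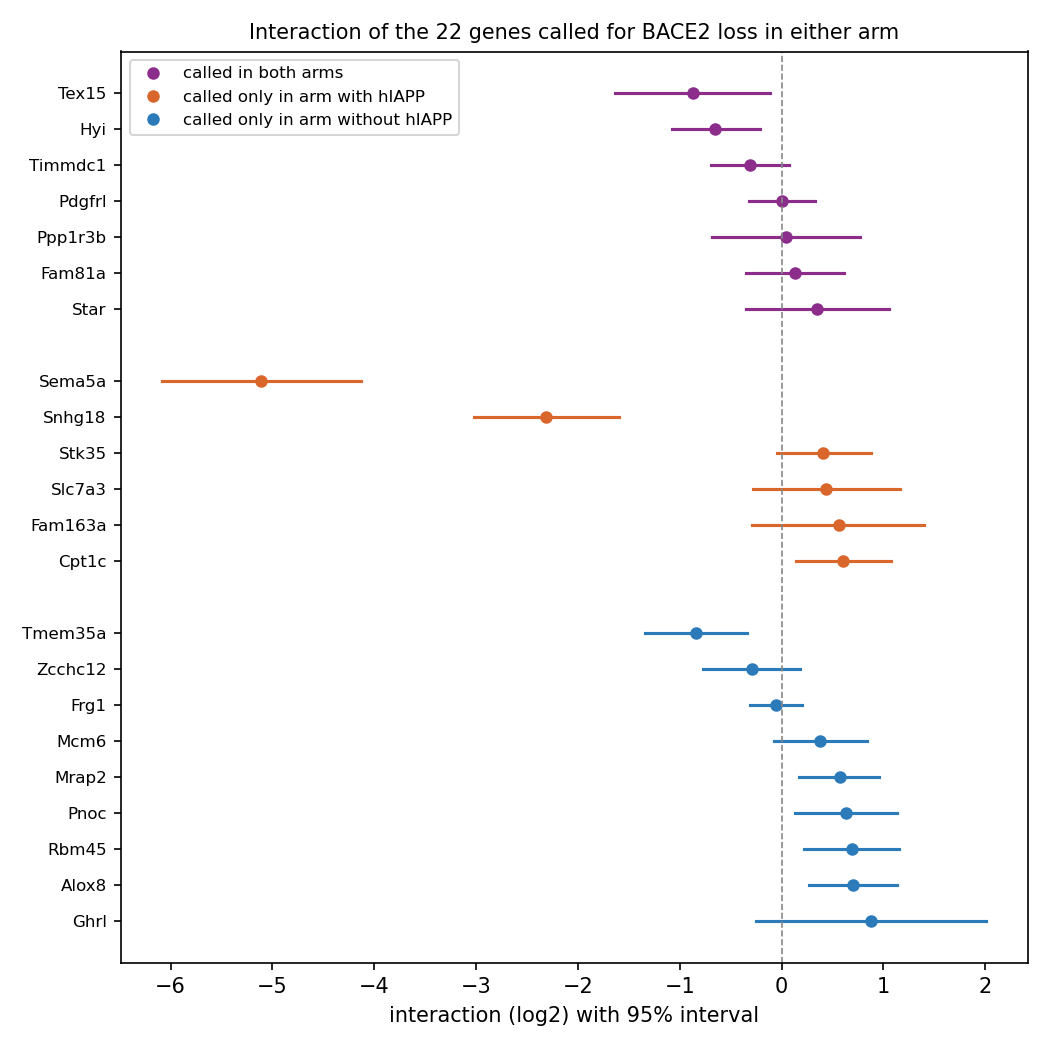
Interaction (log2) with its 95% interval for the 22 genes called for BACE2 loss in either arm, coloured by the arm in which each was called. The intervals of Sema5a (-6.08 to -4.13) and Snhg18 (-3.02 to -1.6) lie far below 0, while 12 of the other 20 intervals cross 0.

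The transgene passed the limma test for 0 genes without BACE2 (0%), where the smallest adjusted p was 0.962, and for 2 genes with BACE2 present (0.0156%), Sema5a and Snhg18. At an unadjusted p under 0.05 the counts were 569 (4.44%) without BACE2 and 580 (4.52%) with it. These 4 single comparisons share groups of arrays with each other and with the interaction.

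The 20 smallest interaction p-values comprised 10 positive and 10 negative values, and in 17 of the 20 BACE2 loss went with opposite signs in the arms. This share comes from the choice by interaction p and is a description; over all 12825 genes it was 37.5%. Beyond Sema5a and Snhg18, each had an adjusted p of 0.9995 in limma. Epb41l4a, a membrane-skeleton protein gene of the band 4.1 family, had the largest positive value of the 20, with levels of 7, 7.82 and 7.58 in hIAPP/BACE2-KO arrays, 6.41, 6.55 and 6.82 in hIAPP arrays, 5.93, 6.29 and 7.04 in BACE2-KO arrays and 6.64, 7.3 and 7.5 in WT arrays. Levels were lower in each group with a single change on average than in the group with both or neither, although each of them overlapped the WT arrays. The interaction was 1.6 (SE 0.42), and it stayed between 1.35 and 1.91 when 1 array was left out. H2-Eb2, a class II histocompatibility beta chain gene, ran the other way, with 3.65, 3.97 and 4.09 in hIAPP/BACE2-KO arrays, 4.34, 4.15 and 4.15 in hIAPP arrays, 4.26, 4.33 and 4.16 in BACE2-KO arrays and 3.76, 3.73 and 3.55 in WT arrays. Here each group with a single change was high, clear of the WT arrays and, by a small margin (4.15 against 4.09), of the arrays with both changes. The interaction was -0.88 (SE 0.19). The WT arrays of H2-Eb2 lay close to the filter level, so its size is not resolved.

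Snx32, a sorting nexin gene, had 4.27, 4.47 and 4.6 in hIAPP/BACE2-KO arrays, 3.83, 3.64 and 4.03 in hIAPP arrays, 4.04, 4.43 and 4.27 in BACE2-KO arrays and 4.37, 4.69 and 4.8 in WT arrays, an interaction of 0.99 (SE 0.23). The hIAPP arrays were the lowest and the other groups ran into each other. Among genes of vessels, Vwf, the von Willebrand factor of endothelium, had an interaction of 1.01 (SE 0.29) and Pdgfb, a growth factor that recruits pericytes, 0.94 (SE 0.28). Among these 20 genes the macrophage lysozyme Lyz2 had the most negative value after Sema5a and Snhg18 and is described with the macrophage list. The remaining 12 of the 20, Cfap298, Sh3rf1, Tmem35a, Pi15, Klhl36, Alox8, Lama2, Slco1a6, Tbxas1, Zfp3, Bcl2l14 and Car11, had values between -0.84 and 0.83. The group means of Pi15, Lama2, Bcl2l14 and Car11 lay near the filter level, and the sizes of their interactions are not resolved.

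The 26 gene lists for islet cell types, other cells and stress pathways are described by their counts beside the median of 0.02 and the 55% of all genes above 0. No list member other than Sema5a passed the interaction test. Interferon-stimulated genes lay on a single side: 25 of 25 tested members, of 30 on the list, had a positive interaction, with a median of 0.48. With the transgene, 21 of 25 were higher with BACE2 loss (median 0.21), where 57% of all genes were, and without it 20 of 25 were lower (median -0.18), where 52.5% of all genes were above 0. The list mean was 7.18, 7.49 and 7.46 in hIAPP/BACE2-KO arrays, 7.52, 6.99 and 6.92 in hIAPP arrays, 6.94, 6.37 and 7.31 in BACE2-KO arrays and 7.05, 6.98 and 7.39 in WT arrays. The groups overlapped, and BACE2-KO replicate 2 was the lowest array. Without it the median was 0.23, with 23 of 25 above 0.

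Among the 25 interferon-stimulated genes tested, 2 had an unadjusted p under 0.05, where 2.4% of all genes did. Oas2, an antiviral oligoadenylate synthetase gene, had 5.86, 6.45 and 6.39 in hIAPP/BACE2-KO arrays, 6.26, 6.11 and 6.03 in hIAPP arrays, 5.43, 4.46 and 5.41 in BACE2-KO arrays and 5.77, 6.08 and 6.43 in WT arrays. The BACE2-KO arrays lay below all others, and the interaction was 1.09 (SE 0.37). Mx1, an antiviral GTPase gene, had 0.75 (SE 0.29) with another arrangement, at 5.57, 5.2 and 5.69 in hIAPP/BACE2-KO arrays, 5.18, 4.4 and 4.75 in hIAPP arrays, 5.64, 5.1 and 5.42 in BACE2-KO arrays and 5.49, 5.36 and 5.43 in WT arrays, so that the hIAPP arrays averaged lowest. Ifit2 and Stat2 had 1.13 (SE 0.59) and 0.59 (SE 0.3), and Ifit2 had 0.6 without BACE2-KO replicate 2.

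Extracellular matrix genes had 17 of 19 members above 0 and a median of 0.53, and markers of stellate cells and fibroblasts, which make that matrix, had 12 of 14 above 0 and a median of 0.34. Tnc, the matrix glycoprotein tenascin C, had 6.28, 7.07 and 5.72 in hIAPP/BACE2-KO arrays, 5.94, 5.1 and 4.55 in hIAPP arrays, 5.2, 3.16 and 5.22 in BACE2-KO arrays and 5.66, 6.32 and 4.25 in WT arrays, an interaction of 2.04 (SE 0.87). The spread within groups was wide: the hIAPP/BACE2-KO arrays lay above the BACE2-KO arrays, and every other pair of groups overlapped. Ccn2, a matricellular growth factor, had 0.78 (SE 0.36). The matrix median was 0.29 without hIAPP/BACE2-KO replicate 2 and without BACE2-KO replicate 2, with 14 of 19 above 0 in each case. The fibroblast median was 0.21 without hIAPP/BACE2-KO replicate 2 and 0.2 without hIAPP replicate 3, and it was 0.1, with 6 of 7 above 0, with the 50th percentile filter. In bulk islets, fewer cells of a type and less RNA per cell cannot be told apart.

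**Figure D4:**
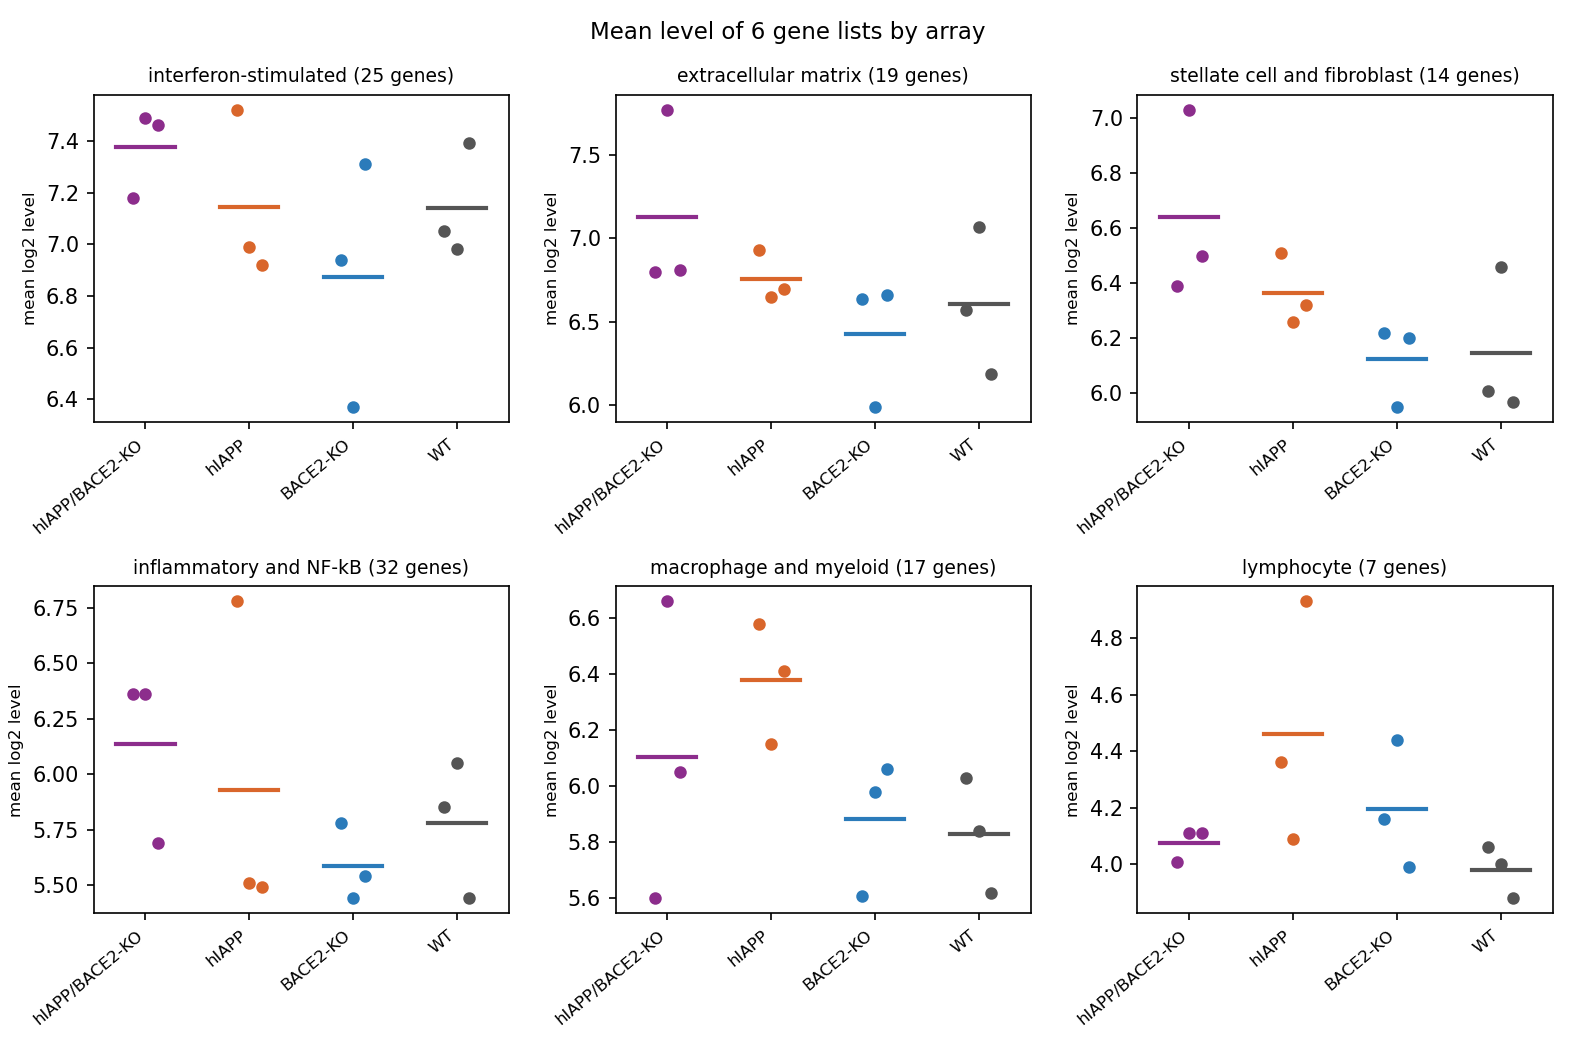
Mean log2 level of 6 gene lists on each of 12 arrays, with bars for group means; each panel has its own vertical scale. hIAPP/BACE2-KO replicate 2 is the highest array in the matrix, fibroblast and macrophage panels, and BACE2-KO replicate 2 is the lowest in the interferon, matrix and fibroblast panels.

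Macrophage and myeloid markers went the other way, with 15 of 17 below 0 and a median of -0.31. Lyz2, a lysozyme of macrophages, had 6.23, 8.01 and 7.23 in hIAPP/BACE2-KO arrays, 8.76, 8.25 and 8.47 in hIAPP arrays, 6.54, 7.1 and 7.18 in BACE2-KO arrays and 6.61, 6.73 and 6.71 in WT arrays. The hIAPP arrays were the highest group and did not overlap the others, and hIAPP/BACE2-KO arrays were spread over more than the range of the groups without the transgene. The interaction was -1.59 (SE 0.47, limma adjusted p = 0.9995), and it ran between -2.02 without hIAPP/BACE2-KO replicate 2 and -1.13 without hIAPP/BACE2-KO replicate 1. Apoe, an apolipoprotein found in amyloid and made by macrophages, had 6.98, 8.66 and 7.72 in hIAPP/BACE2-KO arrays, 9.33, 8.73 and 8.53 in hIAPP arrays, 6.29, 7.7 and 7.62 in BACE2-KO arrays and 6.87, 6.85 and 6.73 in WT arrays. The order of the group means was that of Lyz2 with overlap between the 2 groups that carry the transgene, and the interaction was -1.46 (SE 0.58).

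The macrophage list depended on single arrays. Its mean was 5.6, 6.66 and 6.05 in hIAPP/BACE2-KO arrays, 6.58, 6.15 and 6.41 in hIAPP arrays, 5.61, 5.98 and 6.06 in BACE2-KO arrays and 6.03, 5.84 and 5.62 in WT arrays. hIAPP/BACE2-KO arrays covered the whole range of the 12 arrays. Without hIAPP/BACE2-KO replicate 1 the median was -0.06, with 8 above and 9 below 0, and without hIAPP/BACE2-KO replicate 2 it was -0.54. It was -0.17 without hIAPP replicate 3, -0.17 without BACE2-KO replicate 2 and -0.16 without BACE2-KO replicate 3. With both arrays of lowest weight left out it was 0, with 8 of 17 above 0. With the myeloid list mean as a covariate, the interaction of Sema5a was -5.05 (limma adjusted p = 0.00379).

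Lymphocyte markers had 6 of 7 tested members below 0, with a median of -0.41 that was -0.62 without hIAPP replicate 2 and -0.26 without hIAPP replicate 3. Ms4a1, which encodes the B cell antigen CD20, had -2.45 (SE 1.03), and this rested on hIAPP replicate 3 at 6.73, where the other hIAPP arrays had 3.19 and 3.09, and was -1.25 without it. Inflammatory and NF-kB genes had 24 of 32 above 0 with a median of 0.33, which was 0.15 without hIAPP replicate 3, 0.17 without hIAPP/BACE2-KO replicate 2, 0.19 without hIAPP replicate 2 and 0.62 without hIAPP replicate 1, and was -0.09 with Y-linked transcripts as a covariate. Endothelial markers had 16 of 16 at or above 0 with a median of 0.18, which was 0.02 with 10 of 16 above 0 without BACE2-KO replicate 2, 0.09 without hIAPP replicate 1 and 0.34 without BACE2-KO replicate 3.

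Genes of the islet cells themselves had small interactions. Beta cell identity genes had 13 of 17 above 0 and a median of 0.17, which was 0 without hIAPP replicate 1, 0.09 without BACE2-KO replicate 1 and 0.3 without hIAPP replicate 3. With BACE2 present, 17 of 17 were lower with the transgene (median -0.24), and without BACE2 14 of 17 were (median -0.14), none of them called. The list mean was 9.77, 10.12 and 10.33 in hIAPP arrays and 10.32, 10.26 and 10.41 in WT arrays, so these groups overlapped. Slc2a2, the glucose transporter GLUT2, had 11.31, 11.09 and 11.34 in hIAPP/BACE2-KO arrays, 10.25, 10.93 and 11.44 in hIAPP arrays, 11.18, 11.51 and 11.6 in BACE2-KO arrays and 11.66, 11.44 and 11.56 in WT arrays, an interaction of 0.5 (SE 0.31). hIAPP replicate 1 was the lowest array and hIAPP replicate 3 lay among the others, and the interaction was 0.18 without hIAPP replicate 1. Alpha cell genes had 6 of 9 below 0 and a median of -0.16 (-0.28 without hIAPP/BACE2-KO replicate 3, -0.05 without WT replicate 1), and Ttr, transthyretin, had -0.35 (SE 0.12). Genes of the integrated stress response downstream of PERK and ATF4 had 19 of 26 below 0 and a median of -0.1: BACE2 loss went with higher levels of 23 of 26 in the presence of the transgene (median 0.24) and of 26 of 26 in its absence (median 0.3). The median interaction of that list ran between -0.21 without hIAPP replicate 1 and 0.05 without WT replicate 1, and it was 0.13, with 18 of 26 above 0, with Y-linked transcripts as a covariate.

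Genes of amyloid binding and clearance had 7 of 20 above 0 and a median of -0.04. Apoe, Ttr and the lysosomal protease gene Ctsd (-0.26, SE 0.1) had unadjusted p-values under 0.05, as did 2.4% of all genes. The XBP1 and ATF6 targets (median -0.01), heat shock (-0.02), p53 targets (-0.01), lysosome (-0.02) and immediate early genes (-0.02) lay near the median of all genes. Oxidative phosphorylation genes had 18 of 25 above 0 with a median of 0.04, cell cycle genes 16 of 23 with 0.15, and ribosomal protein genes 3 of 18 with -0.05. The medians of acinar markers (-0.18), duct markers (0.04), delta, PP and epsilon cell markers (0.06), Schwann and neuron markers (-0.05), oxidative stress genes (-0.08) and sex-linked genes (0.12) were likewise not accompanied by any call. Several of these medians changed sign with the arrays used. The acinar median was -0.63 without WT replicate 1 and 0.44 without WT replicate 3, and the duct median was -0.16 without hIAPP/BACE2-KO replicate 2 and 0.32 without hIAPP/BACE2-KO replicate 3. The delta, PP and epsilon cell median was -0.17 without BACE2-KO replicate 1 and 0.2 without BACE2-KO replicate 3, and the immediate early median was -0.1 without hIAPP/BACE2-KO replicate 2 and 0.12 without hIAPP/BACE2-KO replicate 1. With Y-linked transcripts as a covariate, the acinar median was -1.37 with 0 of 17 above 0, the duct median -0.16, the immediate early median 0.12, the cell cycle median -0.02 and the oxidative phosphorylation median -0.03.

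**Figure D5:**
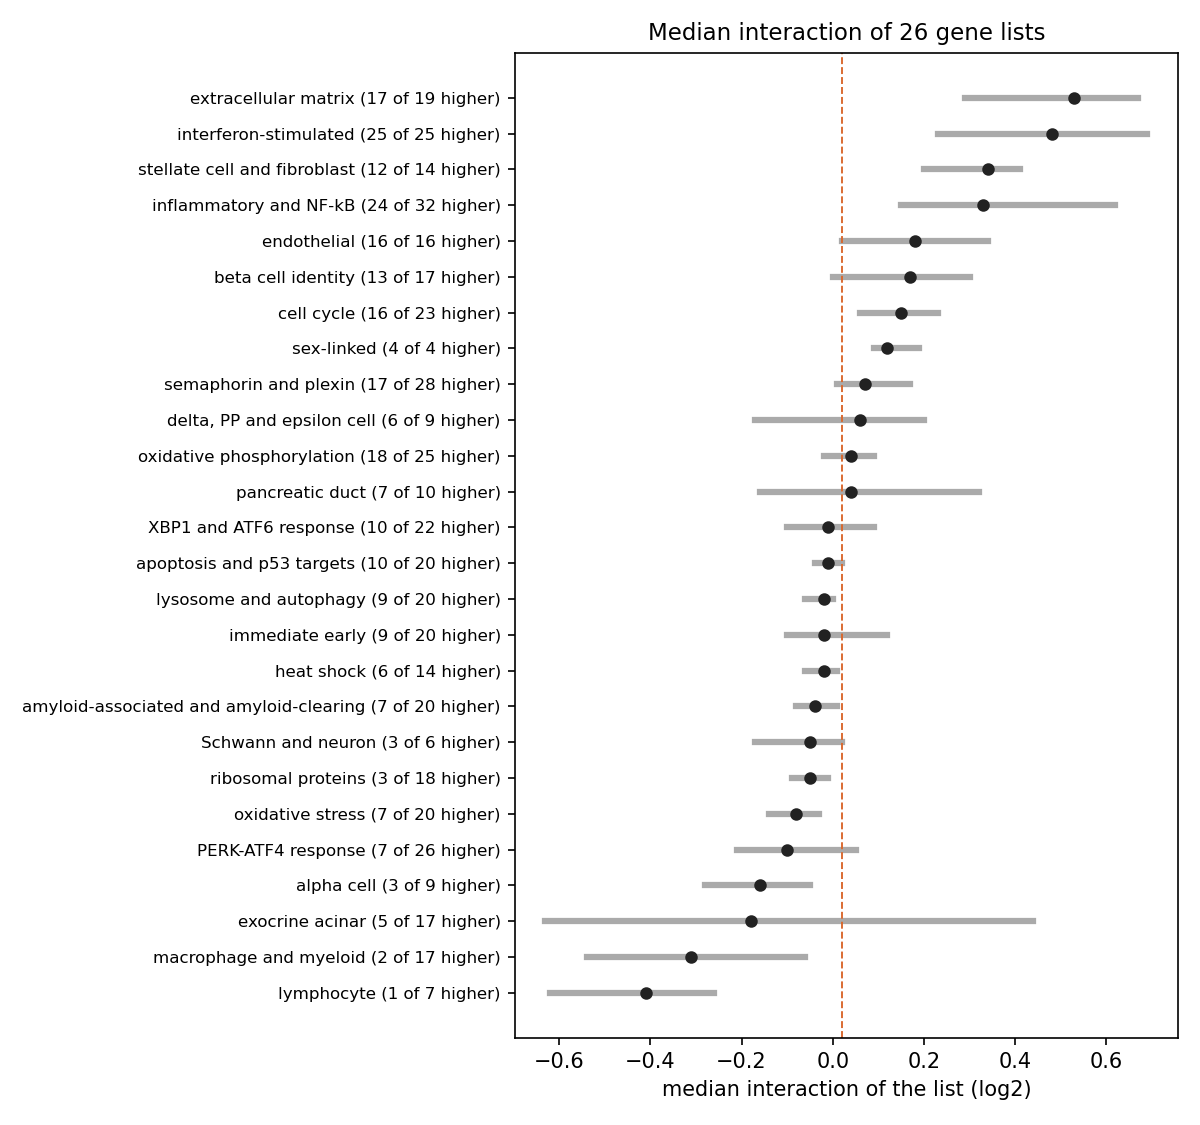
Median interaction (log2) of 26 gene lists, with grey bars for the range when 1 array is left out in turn and a dashed line at the median of all genes (0.02). The interferon-stimulated, matrix, fibroblast, inflammatory, cell cycle and sex-linked lists lie above the line over their whole ranges. The macrophage, lymphocyte, alpha cell, amyloid, heat shock, oxidative stress, ribosomal protein and lysosome lists lie below it, some by little. The acinar list, among others, spans 0.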

How the data were processed

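Total RNA of islets was hybridised as biotinylated cRNA to Affymetrix mouse arrays. The authors deposited log2 levels for 45141 probe sets, made with RMA and affy, as recorded in the submitters' processing notes; the sources used here give no versions and no genome build. Array medians ran between 4.22 and 4.35. Arrays hold no read depth, and their number limits precision.

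Of the probe sets, the platform annotation gives 28898 a single gene symbol and 551 several, and leaves 15692 unlisted. Each gene took its probe set with the highest mean. Groups and replicate numbers came from sample titles and labels. Group means were estimated over the 12 arrays in limma 3.58.1 (R 4.3.3; lmFit, eBayes with a trend), with two-sided tests and a Benjamini-Hochberg adjusted p under 0.05 as the threshold for a call. Steps were tested on simulated data.

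Named genes were Bace2, Ins2, Gcg and Sst, all called genes, the 20 smallest interaction p-values, up to 4 members of a list by p, other probe sets of called genes and chromosome neighbours. The question, lists and named-gene rule were chosen with earlier results of these data known.

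Alternatives were the filter, probe set choice, normalization, variance model, replicate block, array weights, acinar, myeloid or Y-linked covariates, the threshold, a fit of the 6 arrays compared, and leaving out arrays. The linear scale, both arrays of lowest weight left out together, and a test of every probe set were added after seeing the data.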

Additional observations from a re-analysis of the deposited data

Results flagged for a closer look

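The interaction of Sema5a, -5.11 on the log2 scale, is listed because the difference that went with BACE2 loss, -4.59 with the hIAPP transgene and 0.52 without it, differed between both backgrounds by the tested interaction (limma adjusted p = 0.000722). No test for a single array far from the rest of its group was run, since each group holds 3 arrays; the values without each array are given with the results.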

How the results depend on the processing

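Sema5a kept its direction in the 25 log2-scale alternatives in which it was tested and was called in each. Snhg18 was called in 3 of its alternatives: robust eBayes, without hIAPP replicate 3, and the looser threshold of an adjusted p under 0.1. The separate test of every probe set, which Snhg18 also passed, is not counted among them. Of the alternative values of single genes and list medians, 4129 kept direction and call or, for list medians, moved by less than the spread between arrays. A further 27 list medians moved by more, and 3 values, all of Snhg18, became called. The sign changed in 78 of 3639 values of single genes, in 25 of 142 genes, and in 63 of 598 list medians, in 15 of 26 lists, and no called value was among them. With both arrays of lowest weight left out, the interferon median was 0.77, the inflammatory median 0.52, the endothelial median 0.09 and the beta cell median 0.05, and with the Y-linked covariate the lymphocyte median was -0.79 and the macrophage median -0.56. The count of genes called for the interaction (1) was 0 with the 50th percentile filter and 0 on the linear scale. It was 2 with robust eBayes, 2 at an adjusted p under 0.1, and 1 to 2 with 1 array left out, with 2 without hIAPP replicate 3. With each probe set tested on its own, 3 probe sets were called, all of them of Sema5a or Snhg18. The 0 on the linear scale stands beside 291 genes at an unadjusted p under 0.05. For BACE2 loss with hIAPP (13) the count was 24 with median centring, 27 at an adjusted p under 0.1, 5 with both arrays of lowest weight left out, 3 in a fit of only the 6 arrays compared, and 4 to 17 with 1 array left out. For BACE2 loss without hIAPP (16) it was 6 with the 50th percentile filter, 36 with array weights, 4 with the Y-linked covariate, 3 on the linear scale, 9 in a fit of only the 6 arrays compared, and 5 to 16 with 1 array left out. For hIAPP without BACE2 (0) it was 2 with both arrays of lowest weight left out and 0 with each single array left out. For hIAPP with BACE2 (2) it was 1 with the 50th percentile filter, 1 with the myeloid covariate, 1 with the Y-linked covariate, 0 on the linear scale, and 1 to 3 with 1 array left out. The causes of these shifts were not tested.

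For the single genes whose sign changed, none of them called, the interaction was as follows. With quantile normalization, the value was 0.0029 for Bace2, 0.0097 for Gcg, -0.058 for Pdgfrl, -0.024 for Ppp1r3b, -0.028 for Atpsckmt and -0.0053 for Kdm5d. With the myeloid covariate, the value was 0.054 for Bace2, -0.0039 for Ins2 and -0.0050 for Ppp1r3b. With the Y-linked covariate, the value was 0.058 for Bace2, 2.5e-05 for Gcg, -0.0035 for Ghrl, -0.10 for Pdgfrl, -0.22 for Sdc2, -0.059 for Cpq, -0.28 for Mmp7, -0.18 for Icam1, -0.025 for Sdhc, -0.23 for Kdm5d and -0.0075 for Xist. With both arrays of lowest weight left out, the value was 0.035 for Bace2, -0.017 for Ins2, -0.013 for Pdgfrl and 0.0067 for Cldn7. With median centring, the value was -0.037 for Ins2, -0.04 for Pdgfrl, -0.04 for Atpsckmt and -0.01 for Xist. With array weights, the value was -0.016 for Ins2, -0.040 for Pdgfrl and -0.017 for Atpsckmt. With the acinar covariate, the value was -0.010 for Atpsckmt. With probe sets averaged, the value was -0.077 for Cpq and -0.079 for Kdm5d. With 1 array left out, the range was -0.063 to 0.092 for Bace2, -0.013 to 0.028 for Ins2, -0.17 to 0.20 for Sst, -0.0083 to 0.24 for Fam81a, -0.11 to 0.0067 for Frg1, -0.065 to 0.065 for Pdgfrl, -0.18 to 0.31 for Ppp1r3b, -0.12 to 0.0017 for Cct5, -0.077 to 0.13 for Atpsckmt, -0.065 to 0.29 for Sdc2, -0.028 to 0.11 for Cpq, -0.23 to 0.35 for Hhex, -1.20 to 0.20 for Cela1, -1.21 to 0.23 for Cpb1, -0.96 to 0.30 for Cela2a, -0.58 to 0.19 for Amy2a5, -0.0017 to 0.18 for Atf6, -0.095 to 0.14 for Kdm5d and -0.12 to 0.22 for Xist.

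With the replicate number as a replicate block, the interaction count was 1 and the count for BACE2 loss with hIAPP was 29. The numbers share no stated litter, batch or day. Deviations of same-numbered arrays correlated over 0.1 in 10 of 18 pairs (range -0.13 to 0.37), against 5 of 36 pairs of different numbers, and 8 of 12 arrays correlated best with their own number. The pairing was left out of the main fit because no label states it. These values are a hint that arrays of the same number share something, and what they share was not tested.

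With 3 arrays a group, the median 95% interval of an interaction extended 0.43 to either side, and only large interactions could be called. Levels near 3.43 are not resolved from background. The genotypes were not checked: for Bace2 only the probe set with the highest mean is described, and Iapp had none of a single symbol. Genetic background bred along with either change cannot be told apart from that change.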

Other observations

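Ranked by size alone, a choice made after the values were seen, 73 genes had an interaction larger than 1 log2 unit in either direction, and 1 of them, Sema5a, was called. The largest was Igkj1, an immunoglobulin light chain segment, at -5.96 with a 95% interval of -12.43 to 0.51. Its levels were 3.75, 3.42 and 8.6 in hIAPP/BACE2-KO arrays, 3.98, 8.86 and 11.65 in hIAPP arrays, 8.67, 11.22 and 5.08 in BACE2-KO arrays and 3.44, 8.69 and 3.68 in WT arrays, so arrays of a group differed by more than the groups did. Jchain, the joining chain of secreted IgM and IgA, had -3.55 and Iglv1 had -2.28, with high levels in the same arrays: Jchain reached 8.88 in hIAPP replicate 3 and 8.95 in BACE2-KO replicate 2. Sprr2a1 (2.18) and Reg3a (1.66) each rested on hIAPP/BACE2-KO replicate 2, at 9.85 and 8.76, against no more than 4.72 and 4.64 in the arrays of the 3 other groups. Iqgap2 had 2.23 (95% interval 0.15 to 4.3) and the chemokine gene Cxcl14 had 1.83 (0.28 to 3.39), neither of which passed adjustment.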
